A study of Mus musculus with 16 samples.

Results

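The genes described here are 33 genes that macrophages and other leukocytes are known to express, measured in primary podocyte cultures of mice with and without a podocyte-specific deletion of *Tsc2*. They were chosen by name, as every gene of a fixed list with a probe on the array, but earlier results of these data were known when the list was made. All 33 had at least 1 probe among the 22911 genes to which probes could be matched. Each gene was represented by its brightest probe that passed the filter on dim probes, and 31 of the 33 passed it, among 14094 genes in all. Podocytes are epithelial cells of the glomerular filter and do not belong to the blood lineage. Which cells of the cultures these transcripts came from was not tested.

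*Tsc2* encodes tuberin, which restrains the kinase complex mTORC1, and rapamycin inhibits that complex. The cultures came from male mice of the outbred strain Jcl:ICR. Tsc2Δpodocyte mice carry loxP-flanked *Tsc2* alleles together with a Cre recombinase driven by a podocyte-specific promoter, so only cells in which that promoter is active lose *Tsc2*. Tsc2flox/flox mice carry the same floxed alleles without the recombinase. Both genotypes were taken untreated at 4 weeks of age and, for the treated groups, at 5 weeks of age, which the labels place 1 week after rapamycin, a drug injected into the mouse and not added to the dish, with 4 arrays in each of the 4 groups. Glomeruli were isolated with magnetic beads and placed on collagen, and RNA came from the cells that grew out of them, with no sorting step described, while the study checked the identity of the explant cells by staining for the podocyte protein WT1 and found nearly all of them positive. Nothing in the labels ties an array to 1 animal, so the p-values below measure the spread between these 16 arrays, which may be partly technical.

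Each value is the log2 of the processed signal of a one-colour Agilent array minus the 75th percentile of that array, so that 0 is the level of a probe at that percentile and values of different probes are not compared with each other. The 16 arrays had 28696 to 32918 spots well above background and no saturated spot. All 8 untreated arrays lay on one slide and all 8 treated arrays on the other, and on both slides Tsc2Δpodocyte samples filled row 1 and Tsc2flox/flox samples row 2. Slide, age and rapamycin therefore cannot be told apart, nor can genotype and slide row. Both *Tsc2* probes that passed the filter were lower in Tsc2Δpodocyte cultures (log2 fold changes −1.43 and −1.35 untreated, −1.27 and −0.99 with rapamycin, limma adjusted p between 0.00097 and 0.0124). All 14 podocyte markers of a fixed list passed the filter, and 13 of them were above background on all 16 arrays. *Wt1*, a transcription factor of podocytes, was among these 13, while *Nphs1* was above background on 15 arrays and dim (mean log2 −3.54). Fewer macrophages and less macrophage RNA per cell cannot be told apart in RNA from whole cultures.

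Macrophages are phagocytes that settle in every tissue, including the kidney, where they clear debris and immune complexes. They sense the growth factor CSF1 through its receptor (*Csf1r*), recognise antibody-coated particles through Fc receptors whose activating members signal through the chain encoded by *Fcer1g*, secrete the complement protein C1q, and digest what they engulf in lysosomes with lysozyme (*Lyz1*, *Lyz2*) and cathepsin S (*Ctss*). Much of this gene set is under the control of PU.1, the transcription factor encoded by *Spi1*, which binds DNA sites with the core GAGGAA.

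Because so many of these genes are known targets of PU.1, their promoters are shown first. RefSeq promoters of build GRCm38.p6 were at hand for 24 of the 33 genes. The core GAGGAA, read on both strands, was present in the 250 bases before the start of 14 of these 24 genes (58.3%), against 6986 of 27025 genes in the whole table (25.85%). The longer form GAGGAAGT, which contains the core, was present in 1 of the 24 genes (*C1qc*) and in 2.79% of all genes. These matches describe letters in a window and not measured binding. The 100 bases before the start are printed for 3 genes that varied with the reference gene below and that hold a core there (*Laptm5*, *Fcgr3* and *Mrc1*), and for *Mpeg1*, the closest follower, and *Fcer1g*, the reference gene itself, which hold none in their 250 bases. Capitals mark the core on the strand of the gene, as GAGGAA or as its reverse complement TTCCTC.
Laptm5, chr4:130913216-130913315, plus strand: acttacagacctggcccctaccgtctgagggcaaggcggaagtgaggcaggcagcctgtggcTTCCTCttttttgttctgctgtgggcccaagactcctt
Fcgr3, chr1:171059395-171059494, minus strand: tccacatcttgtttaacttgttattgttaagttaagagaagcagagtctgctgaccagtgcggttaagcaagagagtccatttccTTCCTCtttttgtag
Mrc1, chr2:14229314-14229413, plus strand: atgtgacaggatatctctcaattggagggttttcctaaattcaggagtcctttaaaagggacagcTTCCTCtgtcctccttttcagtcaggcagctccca
Mpeg1, chr19:12460670-12460769, plus strand: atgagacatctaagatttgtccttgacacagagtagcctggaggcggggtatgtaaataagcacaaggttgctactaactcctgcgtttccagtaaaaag
Fcer1g, chr1:171234350-171234449, minus strand: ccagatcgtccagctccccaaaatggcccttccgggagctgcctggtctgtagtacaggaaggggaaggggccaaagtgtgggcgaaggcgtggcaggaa

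Most of the 33 genes were measured on every array. Of the 33, 28 were well above background on all 16 arrays, and between 28 and 32 of the 33 were above background on any single array. *Mrc1* (the mannose receptor) was above background on 15 arrays, *Ncf1* (a cytosolic subunit of the phagocyte oxidase) on 14 and *Fcgr2b* (the inhibitory Fc receptor) on 12. *Cd163*, a haemoglobin scavenger receptor of tissue macrophages, was above background on 1 array, untreated Tsc2Δpodocyte array 4. *Spi1* was above background on 1 array, treated Tsc2Δpodocyte array 3. These last 2 genes were not tested, and no fold is given for them.

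Markers of other blood cells passed the filter less completely. In all, 4 of 14 genes of T, B and NK lymphocytes passed the filter, 3 of 10 of neutrophils, 3 of 8 of dendritic cells, 3 of 7 of mast cells and basophils and 3 of 8 of red cells and platelets. Within these lists the genes differed. Of the T cell genes, *Cd3e*, *Cd4* and *Lck* were above background on all 16 arrays, while *Cd3d*, *Cd3g* and *Cd8a* were on 0 of 16. Of the neutrophil genes, *Csf3r* and *Elane* were above background on 16 arrays, *Mmp8* on 14 and *S100a8* on 11, while *S100a9* and *Mpo* were on 0. In contrast, 45 of 56 further myeloid genes passed the filter, 34 of them on all 16 arrays.

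**Figure D1:**
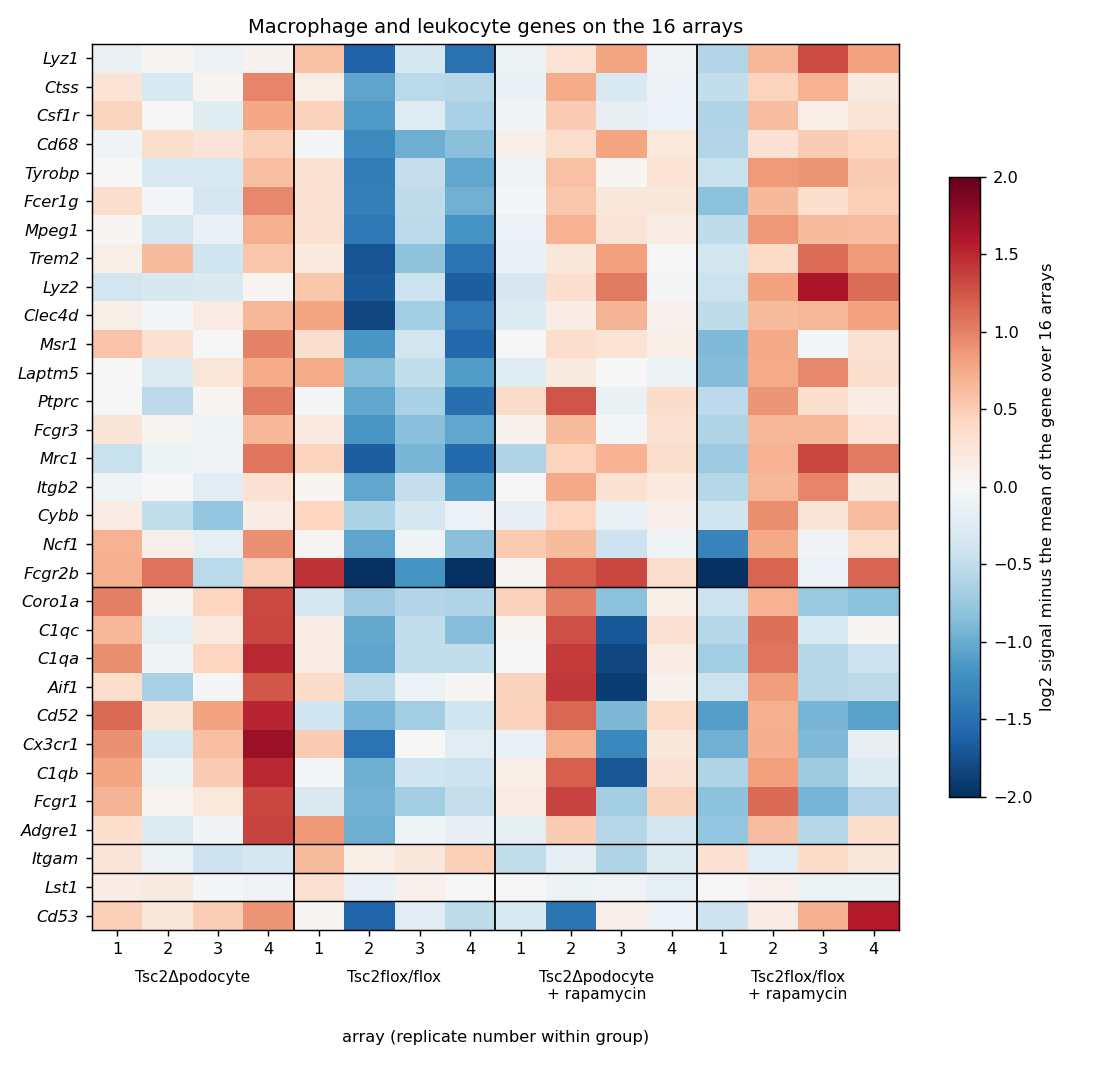
Level of each of the 31 genes tested (rows) on each of the 16 arrays (columns, replicate number within each group of 4), as log2 signal minus the mean of that gene over the 16 arrays. Horizontal lines separate the groups of genes described in the text (19 genes, 9 genes, then *Itgam*, *Lst1* and *Cd53* alone). Untreated Tsc2flox/flox arrays 2 to 4 and treated Tsc2flox/flox array 1 are blue for nearly all of the upper 19 genes, and the C1q chains and *Aif1* are darkest blue on treated Tsc2Δpodocyte array 3. Values beyond the ends of the colour scale take the end colour.

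The level of these genes varied from array to array within each group. The linear signals of the 31 genes, each over the 75th percentile of its array, were summed for each array. The summed level ran from 28.6 to 46.2 on the untreated Tsc2Δpodocyte arrays, from 16.03 to 38.0 on the untreated Tsc2flox/flox arrays, from 27.97 to 42.3 on the treated Tsc2Δpodocyte arrays and from 22.8 to 44.3 on the treated Tsc2flox/flox arrays. All 4 ranges overlapped. The 4 lowest sums were those of untreated Tsc2flox/flox arrays 2 and 4 (16.03 and 20.3), treated Tsc2flox/flox array 1 (22.8) and untreated Tsc2flox/flox array 3 (23.7), while the remaining untreated Tsc2flox/flox array 1 stood at 38.0. The spread within groups (SD over the 4 groups, 12 degrees of freedom) ran from 0.12 for *Lst1* to 1.34 for *Fcgr2b* on the log2 scale.

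Whether these genes vary together was asked with *Fcer1g*, the common signalling chain of activating Fc receptors, as the reference gene. The slope of every probe on *Fcer1g* was fitted beside the 4 group means, so that only differences between arrays of one group entered, and was tested with limma over all probes. *Fcer1g* itself stood at 0.81, 0.43, 0.12 and 1.41 on the untreated Tsc2Δpodocyte arrays, 0.74, −0.91, −0.06 and −0.51 on the untreated Tsc2flox/flox arrays, 0.41, 1.00, 0.68 and 0.68 on the treated Tsc2Δpodocyte arrays and −0.36, 1.10, 0.79 and 0.93 on the treated Tsc2flox/flox arrays. It was lowest on untreated Tsc2flox/flox array 2 and highest on untreated Tsc2Δpodocyte array 4. Of the other 30 genes, 14 varied with *Fcer1g* at an adjusted p under 0.05 and 0 against it, beside 49 of 14093 genes in all (0.348%). The slope was above 0 for 30 of 30 genes, with a median of 0.86 against −0.01 over all genes, a slope of 1 meaning that a gene changes by the same fold as *Fcer1g*. Among the 20 genes with the smallest p, 5 were members of the list, and among the first 100, 18 were.

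The closest followers were *Mpeg1*, *Csf1r* and *Tyrobp*. *Mpeg1*, which encodes a pore-forming protein of phagocytes, had a slope of 0.97 ± 0.08 (SE, adjusted p = 0.00026), with a Pearson r of 0.96 and a Spearman rho of 0.96 between within-group deviations over the 16 arrays. Its values were 0.27, −0.11, 0.11 and 0.96 on the untreated Tsc2Δpodocyte arrays, 0.56, −1.18, −0.27 and −0.95 on the untreated Tsc2flox/flox arrays, 0.13, 0.95, 0.51 and 0.40 on the treated Tsc2Δpodocyte arrays and −0.26, 1.11, 0.88 and 0.87 on the treated Tsc2flox/flox arrays. As for *Fcer1g*, its lowest value lay on untreated Tsc2flox/flox array 2.

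*Csf1r*, the receptor through which macrophages receive their survival signal, had a slope of 0.85 ± 0.07 (adjusted p = 0.00026, r = 0.97, rho = 0.95) and stood at 1.67, 1.24, 0.99 and 2.00 on the untreated Tsc2Δpodocyte arrays, 1.68, 0.09, 0.98 and 0.58 on the untreated Tsc2flox/flox arrays, 1.17, 1.73, 1.06 and 1.11 on the treated Tsc2Δpodocyte arrays and 0.62, 1.85, 1.36 and 1.49 on the treated Tsc2flox/flox arrays. Its highest value lay on untreated Tsc2Δpodocyte array 4 and its lowest on untreated Tsc2flox/flox array 2, as for *Fcer1g*. A second, dimmer *Csf1r* probe was not called (slope 0.28, r = 0.61, adjusted p = 0.878), so the 2 probes disagreed. *Tyrobp*, an adaptor that serves many myeloid receptors including TREM2, had a slope of 0.92 ± 0.08 (adjusted p = 0.00026, r = 0.96, rho = 0.94). Without the 2 arrays that lay farthest from their group on *Fcer1g* (treated Tsc2flox/flox array 1 and untreated Tsc2flox/flox array 1), r was 0.94 for *Mpeg1*, 0.95 for *Csf1r* and 0.93 for *Tyrobp*. Without both arrays, however, no gene at all passed the adjustment in limma (0 of the 30 genes, 18 of them at an unadjusted p under 0.05), so the calls rest partly on these arrays, and r was lower for some of the other genes (0.59 for *Lyz1* and 0.51 for *Cd68*, against 0.79 and 0.75 with all arrays).

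The other 11 genes called were the low-affinity Fc receptor *Fcgr3* (r = 0.93), the scavenger receptor *Msr1* (r = 0.92), the catalytic oxidase subunit *Cybb* (r = 0.90), the macrophage surface receptor *Adgre1* (r = 0.87), the lectin receptor *Clec4d* (r = 0.86), *Mrc1* (r = 0.86), *Fcgr2b* (r = 0.85), the lysosomal membrane protein *Laptm5* (r = 0.86), the beta-2 integrin chain *Itgb2* (r = 0.86), *Ncf1* (r = 0.85) and *Ctss* (r = 0.85). Second, dimmer probes were not called for *Fcgr2b* (slope 1.64, adjusted p = 0.192) and *Ncf1* (slope 0.55, adjusted p = 0.423), while those of *Msr1* and *Cybb* were (adjusted p = 0.00238 and 0.0127). By their brightest probes, both oxidase genes and 3 of 6 genes of lysosomal and antimicrobial proteins were called, against 0 of the 3 complement C1q chains. The slope of *Fcgr2b* was 2.01 ± 0.34, the steepest of the 30, and its probe was above background on 1 of the 4 untreated Tsc2flox/flox arrays. Leaving out 1 array at a time left between 5 and 14 of the 30 genes called, with the lowest count without untreated Tsc2flox/flox array 1 or without treated Tsc2flox/flox array 1 (5 each), and *Csf1r*, *Tyrobp*, *Fcgr3*, *Msr1* and *Mpeg1* were called each time. The count was also 7 without untreated Tsc2flox/flox array 2, 8 without untreated Tsc2Δpodocyte array 4 or treated Tsc2flox/flox array 2, and 9 without treated Tsc2Δpodocyte array 1. With either slide alone the slopes had medians of 0.81 (untreated) and 0.87 (treated), and 0 genes passed the adjustment in 8 arrays, with 27 and 18 of 30 at an unadjusted p under 0.05.

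**Figure D2:**
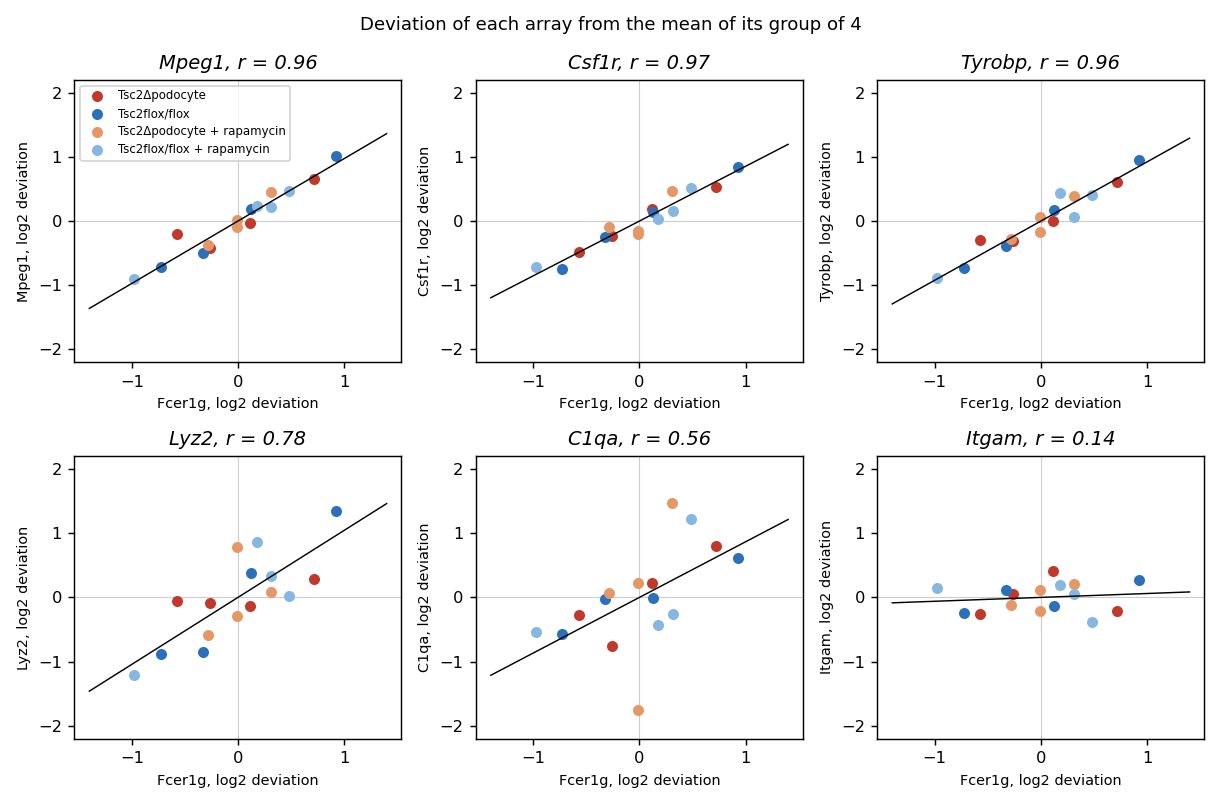
Deviation of each array from the mean of its group of 4 (log2), for *Fcer1g* on the horizontal axis and for 6 other genes on the vertical axis, 1 point per array, coloured by group, with the fitted slope as a line. *Mpeg1*, *Csf1r* and *Tyrobp* follow the line closely (r of 0.96, 0.97 and 0.96), *Lyz2* and *C1qa* scatter around it (0.78 and 0.56), and *Itgam* is flat (0.14).

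The genes outside the list that followed *Fcer1g* with the 15 smallest p were *Hk3*, *Vav1*, *Myo1f*, *Alox5ap*, *Apobec1*, *Igsf6*, *Rac2*, *Tlr13*, *Slc11a1*, *C3ar1*, *Cd84*, *Slc7a8*, *Tmem273*, *Myo1g* and *Evi2a*, with r between 0.90 and 0.97. Of the 15, 6 belong to the fixed list of further myeloid genes (*Vav1*, *Myo1f*, *Alox5ap*, *Rac2*, *Cd84* and *Evi2a*). *Hk3*, a hexokinase of myeloid cells, ranked first of all genes (slope 1.01, adjusted p = 0.000232, r = 0.97). *Vav1* and *Rac2* encode signalling proteins of blood cells, *Alox5ap* the activator of leukotriene synthesis, *Slc11a1* an iron transporter of phagosomes and *C3ar1* the receptor for complement fragment C3a. Of 45 further myeloid genes tested from a fixed list, 13 were called, and the median slope was 0.80. By contrast 0 of 14 podocyte genes, 0 of 10 endothelial genes, 0 of 8 mesangial genes, 0 of 6 parietal epithelial genes and 0 of 18 lysosomal genes were called, with median slopes of −0.12, 0.09, 0.01, −0.08 and 0.08. Among 10 ligands that feed or attract macrophages, *Apoe* was called (slope 0.71, adjusted p = 0.0118, r = 0.89), a lipid carrier that macrophages themselves produce, and *Csf1* was not (slope 0.18, adjusted p = 0.92).

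Over all pairs of the 31 genes, the correlation of within-group deviations had a median of 0.647, and 63.4% of the 465 pairs lay above 0.5. Over all pairs of 14081 genes with a value on every array, the median was 0.015 and 9.02% of pairs lay above 0.5. All pairs share the same 16 arrays, so these are descriptions and not tests. Of the 31 genes, 25 had a median r above 0.5 with the others.

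The genes did not form a single block. Grouped by average linkage at an r of 0.5, a grouping made on these values and therefore given without a test, they split into 19 genes, 9 genes and 3 that stood alone. The larger group held *Fcer1g*, *Tyrobp*, *Csf1r*, *Mpeg1*, *Cd68*, *Ctss*, *Laptm5*, *Ptprc*, *Itgb2*, *Msr1*, *Mrc1*, *Trem2*, *Clec4d*, *Fcgr2b*, *Fcgr3*, *Cybb*, *Ncf1*, *Lyz1* and *Lyz2*, with a median r of 0.82 among them. The smaller held the C1q chains *C1qa*, *C1qb* and *C1qc* together with *Aif1* (the actin-binding protein IBA1), *Cx3cr1* (the fractalkine receptor), *Coro1a* (a coronin of leukocytes), *Cd52*, *Fcgr1* (the high-affinity Fc receptor) and *Adgre1*, with a median r of 0.92. Between *C1qa* and *C1qb* r was 0.99, whereas between *C1qa* and *Lyz1* it was 0.10. These pairs lie near the extremes, and the groups were not sharply separated. Between the 9 genes and all others r ran from −0.32 to 0.92, with a median of 0.43. It was 0.92 between *Adgre1* and *Csf1r* and 0.86 between *C1qc* and *Ptprc*.

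The 2 groups of genes differed most plainly on a few arrays. *C1qa* stood at −0.06, −1.03, −0.55 and 0.53 on the untreated Tsc2Δpodocyte arrays, −0.84, −2.03, −1.47 and −1.48 on the untreated Tsc2flox/flox arrays, −0.99, 0.41, −2.81 and −0.84 on the treated Tsc2Δpodocyte arrays and −1.68, 0.09, −1.56 and −1.4 on the treated Tsc2flox/flox arrays. It was lowest on treated Tsc2Δpodocyte array 3, where the mean of the 9 genes was −2.40 against −0.02 to −0.99 on the other 3 arrays of that group. The 19 genes were not low there, their mean being −0.83 against −0.60 to −1.21. On treated Tsc2flox/flox arrays 3 and 4 the 9 genes averaged −1.83 and −1.53 and the 19 genes −0.50 and −0.60, while on array 2 of that group they averaged −0.28 and −0.44.

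*Lyz2*, which encodes the lysozyme of macrophages, stood at −1.05, −1.0, −0.97 and −0.63 on the untreated Tsc2Δpodocyte arrays, −0.13, −2.35, −1.10 and −2.32 on the untreated Tsc2flox/flox arrays, −1.01, −0.34, 0.36 and −0.71 on the treated Tsc2Δpodocyte arrays and −1.11, 0.13, 0.96 and 0.44 on the treated Tsc2flox/flox arrays. Its highest values lay on treated Tsc2flox/flox arrays 3 and 4 and treated Tsc2Δpodocyte array 3, where *C1qa* was low. *Lyz1* moved with *Lyz2* (r = 0.99), but the pair are close paralogs, and a probe designed for one may also bind the transcript of the other. Whether the 2 groups of genes come from different cells was not tested.

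**Figure D3:**
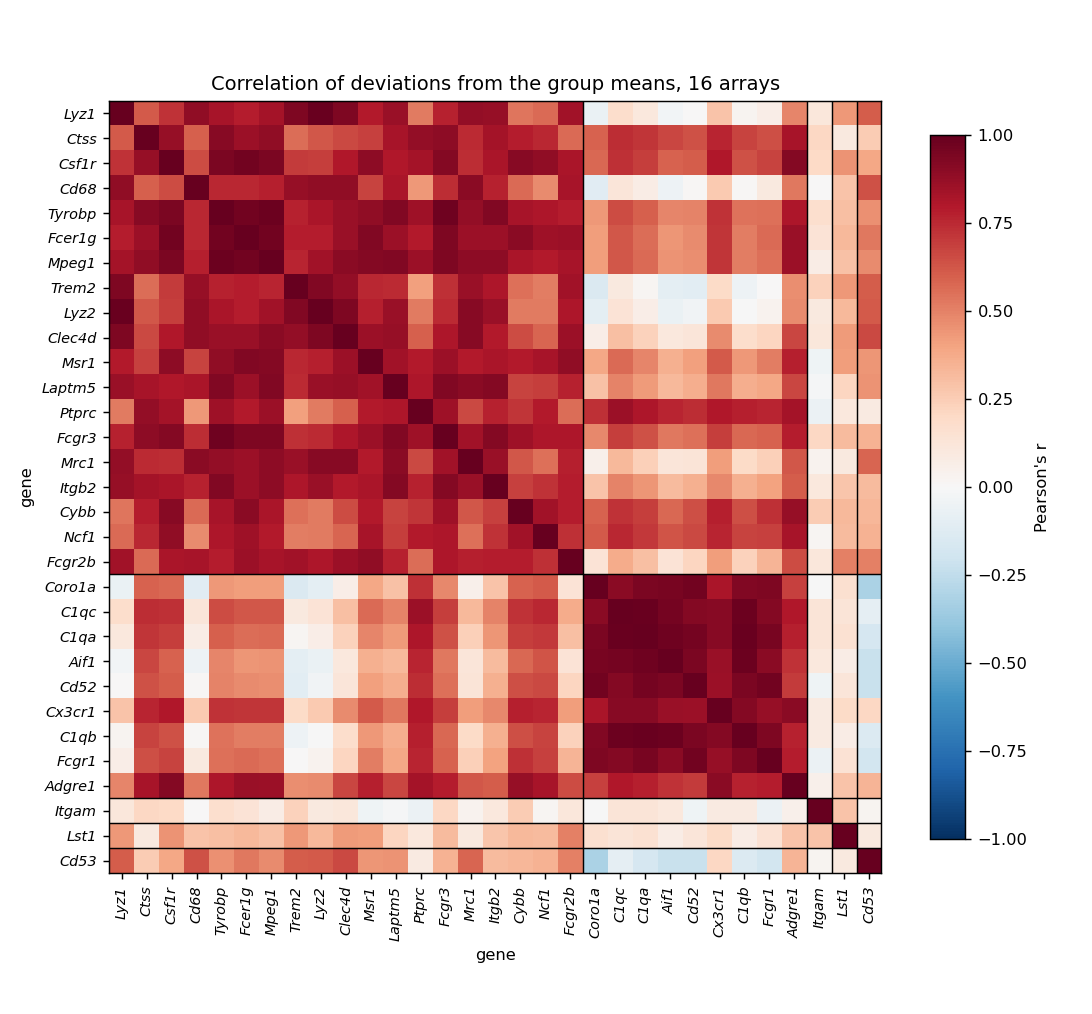
Pearson's r between the within-group deviations of each pair of the 31 genes tested over the 16 arrays, in the same gene order as the plot of levels by array, with lines between the groups of genes. The block of 19 genes has a median r of 0.82 and the block of 9 genes a median r of 0.92, and *Itgam*, *Lst1* and *Cd53* show weak correlations with most other genes.

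*Itgam*, which encodes the integrin CD11b of monocytes, macrophages and neutrophils, did not go with the others. Its median r with the other 30 genes was 0.10 and its slope on *Fcer1g* 0.06 ± 0.13 (adjusted p = 0.99). It stood at 2.46, 2.09, 1.79 and 1.84 on the untreated Tsc2Δpodocyte arrays, 2.83, 2.32, 2.43 and 2.68 on the untreated Tsc2flox/flox arrays, 1.70, 2.03, 1.60 and 1.93 on the treated Tsc2Δpodocyte arrays and 2.51, 1.99, 2.56 and 2.42 on the treated Tsc2flox/flox arrays, with overlapping groups in both genotype comparisons. Only 1 of its 2 probes passed the filter, so the reading could not be checked against the second. *Lst1*, a small leukocyte membrane protein, varied little anywhere (within-group SD 0.12, slope 0.07 ± 0.07, adjusted p = 0.95). *Cd53*, a tetraspanin of leukocytes, had a slope of 0.62 ± 0.28 (adjusted p = 0.92), and its lowest values lay on untreated Tsc2flox/flox array 2 (−4.58) and on treated Tsc2Δpodocyte array 2 (−4.44), the second of which was a high array for most other genes.

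Untreated cultures of the 2 genotypes were compared next, to ask whether these genes differed between Tsc2Δpodocyte and Tsc2flox/flox. In this comparison 3 of the 31 genes were higher in Tsc2Δpodocyte cultures, *Cd68*, *Coro1a* and *Cd52*, and 0 were lower. That is 9.68% of the genes, close to the background, since 10.3% of all genes tested were called higher and 9.2% lower. The fold changes leaned one way. They come from the same arrays and the genes move together, so their signs are not 31 separate observations. The log2 fold change was above 0 for 28 of 31 genes, from −0.52 to 1.53 with a median of 0.93, against a median of −0.01 over all genes, and 14 of 31 had an unadjusted p under 0.05, beside 34.4% of all genes. The standard error had a median of 0.41, so that a gene with the median difference lay near 2 standard errors.

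*Cd68*, the lysosomal glycoprotein macrosialin, stood at 1.00, 1.41, 1.32 and 1.54 on the untreated Tsc2Δpodocyte arrays 1 to 4 and 1.04, −0.20, 0.09 and 0.23 on the untreated Tsc2flox/flox arrays 1 to 4. Array 1 of Tsc2flox/flox exceeded the lowest Tsc2Δpodocyte value, and the groups overlapped by that array alone. The log2 fold change was 1.03 ± 0.27 (SE, limma adjusted p = 0.019, exact permutation p = 0.0571, 2-sided). A dimmer second probe of the gene gave 1.16 ± 0.28 (adjusted p = 0.0127).

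*Coro1a* stood at 1.01, 0.02, 0.42 and 1.32 on the untreated Tsc2Δpodocyte arrays 1 to 4 and −0.35, −0.73, −0.59 and −0.60 on the untreated Tsc2flox/flox arrays 1 to 4, with every Tsc2Δpodocyte value above every Tsc2flox/flox value. The log2 fold change was 1.26 ± 0.39 (adjusted p = 0.0399, exact permutation p = 0.0286, the smallest that 4 against 4 arrays can give). *Cd52*, a small glycoprotein on the surface of leukocytes, stood at 0.10, −0.81, −0.23 and 0.49 on the untreated Tsc2Δpodocyte arrays 1 to 4 and −1.44, −1.96, −1.73 and −1.44 on the untreated Tsc2flox/flox arrays 1 to 4, again without overlap. Its log2 fold change was 1.53 ± 0.45 (adjusted p = 0.0296, exact permutation p = 0.0286). Groups without overlap were found for 4 of the 31 genes, these 2 and *Fcgr1* and *Cd53*, all higher in Tsc2Δpodocyte, beside 13.5% of all genes that were higher without overlap.

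The calls depended on single arrays. Without untreated Tsc2Δpodocyte array 4, the array with the highest summed level, 0 of the 31 genes were called. Without untreated Tsc2flox/flox array 2, 3 or 4, 1 gene was called each time (*Itgam*, lower, without array 2, and *Cd68* without array 3 or 4). Without untreated Tsc2flox/flox array 1, 8 were called. Leaving out treated Tsc2flox/flox array 1 or 2, which enter only through the shared spread, gave 6. *Cd68* lost its call without untreated Tsc2Δpodocyte array 4 or Tsc2flox/flox array 2, *Cd52* without any of 5 arrays and *Coro1a* without any of 7. *Itgam* gained a call, as lower, without any of 5 arrays.

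**Figure D4:**
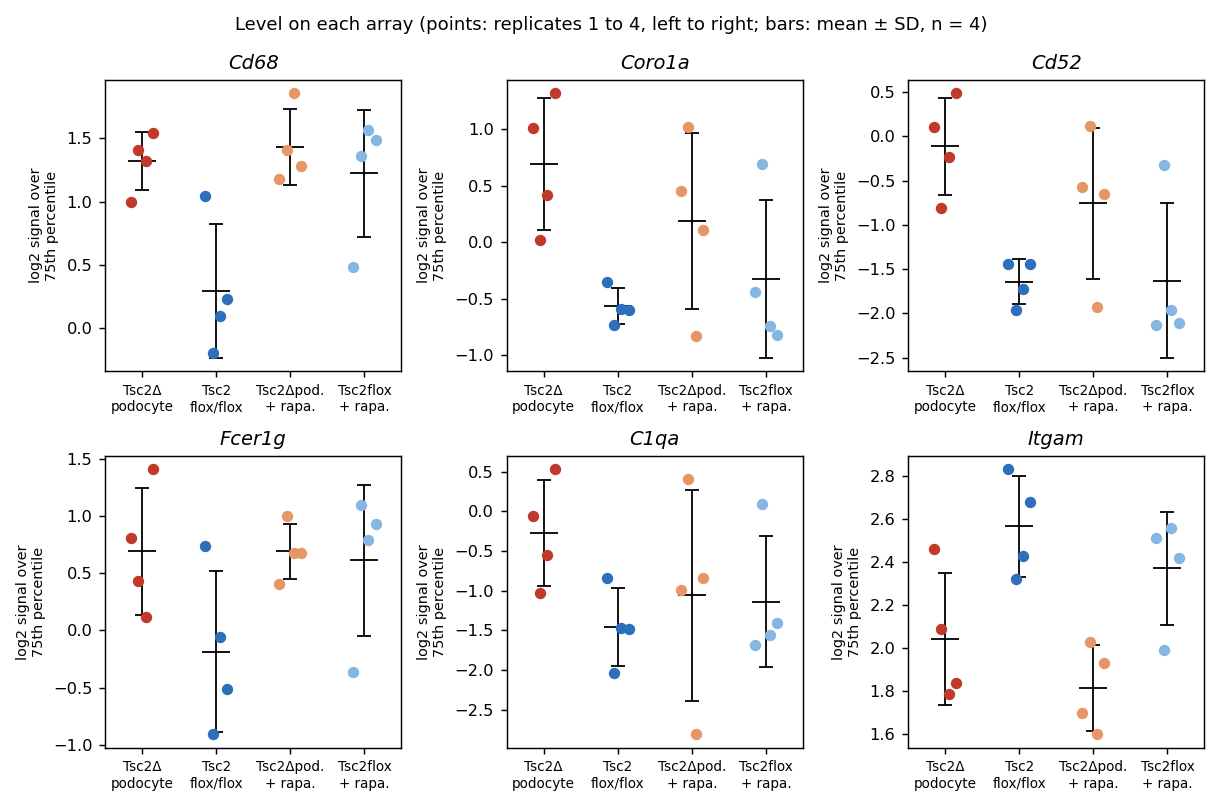
Level on each array (log2 signal over the 75th percentile of the array) of 6 genes in the 4 groups, with points for replicates 1 to 4 from left to right and bars for the mean ± SD (n = 4). *Coro1a* and *Cd52* do not overlap between untreated genotypes, *Cd68* overlaps by 1 Tsc2flox/flox array, *Fcer1g* and *C1qa* overlap, and *Itgam* lies higher in Tsc2flox/flox with overlap.

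Read by role, no class of genes was called as a whole. Among 12 surface receptors and markers, 1 was called (*Cd52*) and the log2 fold changes ran from −0.52 (*Itgam*) to 1.53, with a median of 1.02. *Trem2*, a lipid-sensing receptor, had 1.18 ± 0.41 (adjusted p = 0.0596) and *Msr1* 1.16 ± 0.39 (adjusted p = 0.0521), and neither passed. Among the uncalled genes *Itgam* came closest to the threshold, in the other direction, at −0.52 ± 0.17 (adjusted p = 0.0503). All 5 Fc receptors and adaptors had values between 0.65 (*Tyrobp*) and 1.47 (*Fcgr2b*) and 0 were called. The nearest was *Fcgr3* at 0.93 ± 0.32 (adjusted p = 0.0563). The *Fcgr2b* probe was above background on only 1 of the 4 untreated Tsc2flox/flox arrays. A second, dimmer probe of that gene gave 0.44 (adjusted p = 0.738). The 3 C1q chains lay close together at 1.18, 1.13 and 1.06 with adjusted p from 0.149 to 0.191, their standard errors being 0.52 to 0.58. Of 6 lysosomal and antimicrobial proteins 1 was called (*Cd68*), while *Lyz1* and *Lyz2* had 0.68 and 0.56 (adjusted p = 0.316 and 0.455). The oxidase subunits *Cybb* and *Ncf1* had −0.07 and 0.86, and among the last 3 genes *Coro1a* was called while *Aif1* had 0.30 and *Lst1* −0.01.

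When *Fcer1g* was added to the fit as a covariate, the median over the other 30 genes was 0.06, against 0.94 without it. None of them was then called higher, and *Cybb* was called lower (log2 fold change −0.70 ± 0.17, adjusted p = 0.0208). Over all 14093 genes of that fit, 872 were called higher and 645 lower. *Cybb* had −0.07 without the covariate and a slope of 0.72 on *Fcer1g*. *Cd68*, *Coro1a* and *Cd52* kept values of 0.55 ± 0.22, 0.87 ± 0.44 and 1.04 ± 0.48 (adjusted p = 0.14, 0.229 and 0.192). Since *Fcer1g* belongs to the same set and differed between the groups itself (0.88 ± 0.37, adjusted p = 0.118), the covariate takes up by construction whatever the genes share. A fixed list of 18 lysosomal genes had a median slope on *Fcer1g* of only 0.08, so by construction the covariate could change their values little. Without the covariate 11 of these 18 were higher in Tsc2Δpodocyte, beside 1450 of all 14093 genes. With it 8 were, beside 872, and the medians of the 18 were 0.55 and 0.49. *Ctsb*, *Neu1* and *Psap*, which encode cathepsin B, a sialidase and the saposin precursor, led them with log2 fold changes of 1.06, 0.99 and 0.85 (adjusted p = 0.000105, 0.000479 and 0.000653). *Cd68*, *Ctss* and *Laptm5* are lysosomal proteins as well, and whether their values come from macrophages or from the lysosomes of other cells was not tested.

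**Figure D5:**
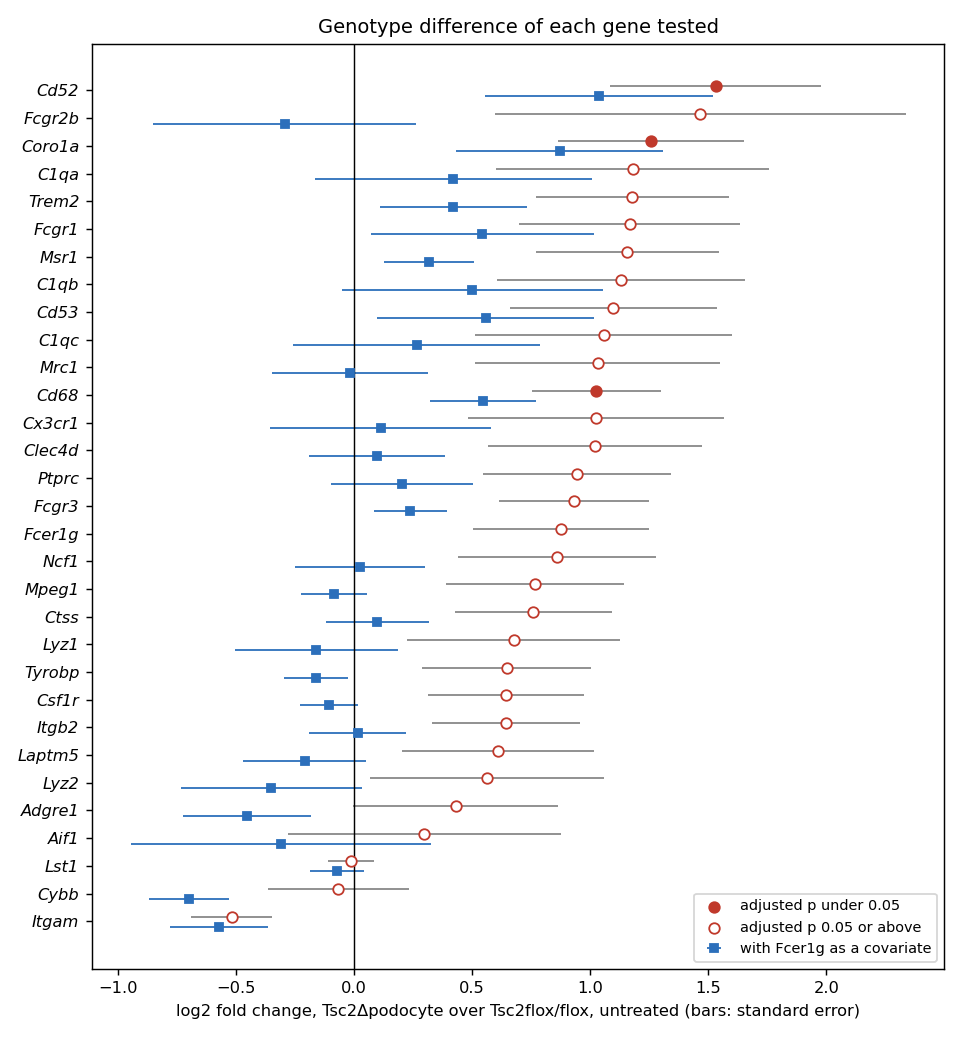
Log2 fold change of each of the 31 genes between untreated Tsc2Δpodocyte and Tsc2flox/flox cultures with its standard error, as circles for the fit with group means alone (filled where the adjusted p was under 0.05) and as squares for the fit with *Fcer1g* as a covariate. Circles lie right of 0 for 28 of 31 genes with 3 filled, and the squares centre near 0 with a median of 0.06.

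Further myeloid genes and the ligands of macrophages were read in the same comparison. Over all genes, 10.3% were called higher and 9.2% lower in untreated Tsc2Δpodocyte cultures, with a median log2 fold change of −0.01. Of 45 myeloid genes, 7 were higher and 0 lower, with a median of 0.75. *Tlr7*, a receptor for RNA, was higher by 0.89 (adjusted p = 0.00424), and its slope on *Fcer1g* was not called (r = 0.20, adjusted p = 0.973). Of 10 ligands, the monocyte-attracting chemokines *Ccl7* and *Ccl2* were higher, with log2 fold changes of 1.87 (adjusted p = 0.000427) and 0.89 (adjusted p = 0.0418), and *Csf1*, the macrophage growth factor, had 0.29 (adjusted p = 0.146). The median over the 10 ligands was −0.26. Among treated cultures *Ccl7* was also higher (1.83, adjusted p = 0.00163), and *Cxcl12* was lower (−1.94, adjusted p = 0.0345). The slopes of *Ccl7* and *Ccl2* on *Fcer1g* were not called (r = 0.56 and 0.28, adjusted p = 0.892 and 0.953).

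Among rapamycin-treated cultures the genotypes were compared in the same way. Of the 31 genes 0 were called in limma, 2 having an unadjusted p under 0.05 (27.3% of all genes did), beside 11.2% of all genes called in either direction, and the test per gene without moderation named in the study's methods, with p-values adjusted over all probes, also called 0, with 1 at an unadjusted p under 0.05. The log2 fold change was above 0 for 13 of 31, with a median of −0.05 and a range from −0.95 (*Cd53*) to 0.87 (*Cd52*). The gene nearest to the threshold was *Itgam*, at −0.55 (adjusted p = 0.0545). The 3 genes called in untreated cultures had 0.20 (*Cd68*), 0.52 (*Coro1a*) and 0.87 (*Cd52*).

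The difference between the 2 genotype effects was tested directly as an interaction. No gene of the 31 was called, and 0 of all 14094 genes were (0%), 2 of the 31 and 7.4% of all genes having an unadjusted p under 0.05. The interaction value, treated minus untreated, was below 0 for 31 of 31 genes, with a median of −0.82 and a range from −2.05 (*Cd53*) to −0.04 (*Itgam*). All 31 values come from the same 16 arrays and the genes move together, so that the 31 signs are not 31 separate observations. For *Cd68* the value was −0.82 (adjusted p = 0.681).

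Treated and untreated cultures of 1 genotype share arrays with the comparisons above, and their difference includes that of slide and age. In Tsc2Δpodocyte 0 of the 31 genes were called (1 at an unadjusted p under 0.05, against 24.2% of all genes, and 0 by the methods' test), beside 3.51% of all genes, with a median log2 fold change of −0.20. *Cd53* was the gene with the unadjusted p under 0.05, at −0.96 (adjusted p = 0.212), with every treated value below every untreated one. In Tsc2flox/flox 0 of 31 were called, beside 0.163% of all genes, while 14 had an unadjusted p under 0.05 (15.9% of all genes did) and the methods' test called 0. The median there was 0.72, and 26 of 31 values were above 0. As the genes move together, these signs are not separate observations either.

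The larger values in Tsc2flox/flox belonged to *Lyz2* (1.58), *Mrc1* (1.5), *Trem2* (1.45) and *Lyz1* (1.26), with adjusted p from 0.125 to 0.204. *Trem2* stood at 0.12, 0.64, −0.39 and 0.57 on the untreated Tsc2Δpodocyte arrays, 0.20, −1.72, −0.79 and −1.47 on the untreated Tsc2flox/flox arrays, −0.12, 0.24, 0.83 and 0.02 on the treated Tsc2Δpodocyte arrays and −0.35, 0.40, 1.13 and 0.86 on the treated Tsc2flox/flox arrays. Untreated Tsc2flox/flox arrays 2 to 4 were the lowest of the 16, and treated Tsc2flox/flox arrays 3 and 4 were the highest. The C1q chains had smaller values in this comparison, at 0.32, 0.27 and 0.62.

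Levels of endothelial genes were also compared between the slides, and 0 of 10 were called in either rapamycin comparison. The summed level of 10 endothelial genes was 9.68 to 68.8 and 7.75 to 90.4 on the untreated Tsc2Δpodocyte and Tsc2flox/flox arrays, and 5.27 to 8.61 and 5.58 to 13.2 on the treated ones. Its part in the values of the macrophage genes was not tested. Within groups the endothelial genes had a median r of 0.07 with *Fcer1g*.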

How the data were processed

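RNA of primary podocyte cultures was hybridised to one-colour Agilent SurePrint mouse arrays, 16 samples with 1 array per sample. The deposited intensity values are processed signals of Agilent Feature Extraction 10.7.3.1, background-subtracted and detrended within the array but not scaled between arrays, and the deposited scanner flags of other kinds (well above background, outlier, saturated) were used as given. The authors also deposited a table of log2 values, which by comparison with the scanner signals are scaled to the 75th percentile of each array and centred on the median of each probe (r from 0.9997 to 0.9999 per array). It served as an alternative only.

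Control spots (3671 of 62976) and spots flagged as outliers were left out, spots of 1 probe were averaged, and log2 signals minus the 75th percentile of the array were used. Of 56605 probes, 32994 were matched by accession to 22911 genes. A probe was tested where every array of some group had it well above background (27579 probes, 14094 genes), and the brightest of a gene stood for it. The 4 group means were fitted over 16 arrays with limma 3.58.1 in R 4.3.3 (lmFit and eBayes), with Benjamini-Hochberg adjustment over all probes, and an adjusted p under 0.05 was called whatever the fold. The slope on *Fcer1g* was added to that fit. Single genes were also compared by exact permutation of 4 against 4 arrays. The fits were tested on simulated data. The genes named are all members, the 15 other genes with the smallest p for the slope, and the 3 genes with the smallest p of each other list, with further genes of these lists named after their values were seen, and some genes are not reported here. The members and all lists were chosen with earlier results of these data known. Arrays correlated at r from 0.978 to 0.992 within groups and from 0.951 to 0.989 between groups, and their number limits the precision. Alternatives were other background corrections, normalizations, filters, tests and sets of arrays.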

Additional observations from a re-analysis of the deposited data

Results flagged for a closer look

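In each group of 4 arrays, the gap between the most distant array and its nearest neighbour was divided by the range of the group. Of 128 groups tested (31 genes and the summed level in 4 groups each), 6 had a share above the critical value of Dixon's test for 4 samples, which is 4.69%, and chance alone gives about 1 in 20. In 4 of the 6, treated Tsc2flox/flox array 2 stood above the other 3 arrays of its group. For *Cd52* it stood at −0.32 against −2.13 to −1.96 (share 0.908), for *Aif1* at −0.18 against −1.58 to −1.44 (0.899), for *C1qa* at 0.09 against −1.68 to −1.4 (0.843) and for *Fcgr1* at −0.84 against −2.90 to −2.57 (0.837). All 4 of these genes belong to the group of 9 genes that varied together, so they are not separate observations. *Clec4d* was low on treated Tsc2flox/flox array 1, at −1.81 against −0.67 to −0.50 (0.87). *Csf1r* was high on treated Tsc2Δpodocyte array 2, at 1.73 against 1.06 to 1.17 (0.845).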

How the results depend on the processing

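For untreated genotypes, the 3 genes called became 6 with quantile normalization and 7 with normexp background correction. The count was 5 with the stricter filter, the deposited table or a trended robust variance. It was 1 without the filter on dim probes, with the unmoderated test of the methods or with *Fcer1g* as a covariate. These counts mix directions. With quantile normalization, normexp, the stricter filter or the trended robust variance, 1 of the calls was *Itgam*, lower in Tsc2Δpodocyte. The 1 gene called with *Fcer1g* as a covariate was *Cybb*, also lower. Leaving out 1 array gave 0 to 8. For treated genotypes, the count of 0 became 1 with normexp, the stricter filter or the trended robust variance, and ran from 0 to 2 without 1 array. The interaction and both rapamycin comparisons stayed at 0 under every alternative run. The 14 genes that varied with *Fcer1g* became 9 with normexp, 6 without the filter, and 0 with the 8 untreated arrays alone, the 8 treated arrays alone or without both of the most distant arrays (an alternative chosen after seeing the data), and ran from 5 to 14 without 1 array. Same-numbered arrays did not pair across all groups (r from −0.334 to 0.464, 7 of 24 pairs over 0.1). Between both treated groups, however, r was −0.02, 0.46, 0.17 and 0.29 for replicates 1 to 4. Same-numbered arrays also shared a slide column, and the part of the column in the co-variation was not tested. With the replicate block the counts were 4 untreated, 0 treated and 12 for the slope.

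Some values changed sign, including values well above 0 when *Fcer1g* was a covariate. With *Fcer1g* as a covariate the genotype log2 fold change was −0.45 for *Adgre1*, −0.11 for *Csf1r*, −0.16 for *Lyz1*, −0.35 for *Lyz2*, −0.16 for *Tyrobp*, −0.31 for *Aif1*, −0.0161 for *Mrc1*, −0.21 for *Laptm5*, −0.29 for *Fcgr2b* and −0.0847 for *Mpeg1*. *Cybb* was at 0.0737 with quantile normalization and 0.0298 with normexp, and *Lst1* at 0.0173 in the deposited table. Without 1 array, *Aif1* ran from −0.0393 to 0.59, *Cybb* from −0.22 to 0.14 and *Lst1* from −0.0764 to 0.0657. The slope of *Itgam* was −0.11 on the treated arrays alone and −0.0324 to 0.16 without 1 array, and that of *Lst1* was −0.0010 with normexp, −0.0231 on the treated arrays alone and −0.0036 to 0.12 without 1 array. The cause was not tested for any of these. *Cd163*, *Spi1* and the dim probe of *Fcgr2b* are limited by signal over background.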

Other observations

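Markers of other glomerular cells differed between untreated genotypes without following *Fcer1g*. Of 8 mesangial genes 3 were higher in Tsc2Δpodocyte, the intermediate filament gene *Des* (log2 fold change 1.76, adjusted p = 0.000539), the integrin *Itga8* (1.42, adjusted p = 0.0104) and the growth factor receptor *Pdgfra* (0.73, adjusted p = 0.0463), with r to *Fcer1g* between −0.42 and −0.05. Of 6 parietal epithelial genes 2 were lower, the transcription factor *Pax8* (−1.47, adjusted p = 0.000523) and the cadherin *Cdh6* (−1.64, adjusted p = 0.00146). *Des*, *Pax8* and *Cdh6* were also called among treated cultures, at 1.28, −1.14 and −1.90. Of 14 podocyte genes, *Foxc2* was lower (−0.77, adjusted p = 0.04) and 13 were not called. Of 3 neutrophil genes tested, the proteases *Mmp8* (2.46, adjusted p = 0.0025) and *Elane* (0.60, adjusted p = 0.0032) were higher, with r to *Fcer1g* of 0.24 and −0.11.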
